A study of Mus musculus with 20 samples.

Results

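The 9 genes that carry a cell out of G1 were followed through cultured mouse renal myofibroblasts: the D cyclins *Ccnd1*, *Ccnd2* and *Ccnd3*, the E cyclins *Ccne1* and *Ccne2*, the kinases *Cdk2*, *Cdk4* and *Cdk6*, and the transcription factor gene *Myc*. They were chosen by name, are 9 of the 51826 genes in the count table, and all 9 passed the filter on low counts that 20407 genes passed. Only *Ccnd3* passed the test between genotypes. It was 1.89-fold lower in TGFβ1-treated WWP2-/- cells than in TGFβ1-treated WT cells, a call that was lost with the sex marker *Xist* as a covariate, and the other 8 members did not pass in any comparison of all libraries in edgeR. *Myc* had a larger fold change, with every treated WWP2-/- library above every treated WT library. However, 1 treated WWP2-/- library stood far above the rest, and *Myc* missed the threshold.

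D cyclins are made when growth factors reach a resting cell, and they bind CDK4 or CDK6. These kinases start the phosphorylation of the retinoblastoma protein, E cyclins with CDK2 complete it, and the E2F factors it held then switch on genes of DNA synthesis. MYC links growth signals to this step, and *Ccnd2* and *Cdk4* are among its known targets. In the injured kidney, fibroblasts divide and become contractile myofibroblasts that lay down matrix, and TGFβ1 drives the latter while it restrains division in many epithelial cells.

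Poly-A RNA from primary renal myofibroblasts of strain C57BL/6J was sequenced in 20 libraries. Each of 4 groups had 5 libraries: WT untreated, WT treated with TGFβ1, WWP2-/- untreated and WWP2-/- treated with TGFβ1, where WWP2-/- cells come from mice that lack the ubiquitin ligase WWP2 and WT cells from wild-type mice of the same background. The cells had crawled out of minced kidney pieces and been passaged, so they were not sorted, and the labels give neither the age or sex of the mice nor which libraries share a mouse. P-values therefore measure the spread between these libraries, which may in part be technical.

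Library totals lay between 47520759 and 73063697 counts. *Wwp2* lay between 50.0 and 59.8 CPM (counts scaled to a common library total by TMM) in the 10 WT libraries and between 17.0 and 22.7 CPM in the 10 WWP2-/- libraries, so it was lowered but still counted. *Xist*, a transcript of the inactive X chromosome in female cells, was above 1 CPM in 4 of 5 untreated WT, 4 of 5 treated WT, 2 of 5 untreated WWP2-/- and 1 of 5 treated WWP2-/- libraries, so genotype and this marker are partly confounded. *Acta2*, which encodes the smooth muscle actin that defines a myofibroblast, was at 38.9 CPM in untreated WWP2-/- replicate 3 and 50.4 CPM in treated WWP2-/- replicate 1, against 1016 CPM or more in the other 18 libraries. Both of these libraries had *Xist* above 1 CPM, and the only other such WWP2-/- library was untreated replicate 1, at 33.6 CPM. Within WWP2-/- cells *Xist* and low *Acta2* are therefore confounded, and *Xist* as a covariate cannot be read as sex alone. The summed level of 10 fibroblast markers ranged over 4648 to 20968 CPM in untreated WT, 10671 to 33955 in treated WT, 4292 to 10336 in untreated WWP2-/- and 5271 to 13206 in treated WWP2-/- libraries. The sum of 10 macrophage markers ranged over 161 to 3994, 80.8 to 452, 91.8 to 1812 and 89.2 to 3566 CPM in the same order of groups. The sums of 10 tubule markers, 1 of them under 1 CPM in all 20 libraries, ranged over 37.9 to 438, 44.7 to 215, 16.8 to 796 and 14.2 to 575 CPM. For 10 endothelial markers they ranged over 78.8 to 106, 74.2 to 239, 17.8 to 195 and 22.3 to 198 CPM, and for 10 pericyte and mesangial markers, 3 of them under 1 CPM throughout, over 188 to 215, 155 to 253, 45.4 to 361 and 51.7 to 605 CPM.

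Promoter windows were read from RefSeq (GRCm38.p6) for 5 of the 9 members, and no window was used for *Ccnd1*, *Ccnd2*, *Ccne2* or *Myc*. The bases printed are the 250 before the start, cut short where an annotated exon lies among them. The *Cdk4* window is shown because *Cdk4* is a known MYC target and *Myc* had the largest fold change of the members between genotypes. Both *Ccnd3* windows are shown because *Ccnd3* passed the test. Capitals mark the E-box CACGTG in *Cdk4*, and in *Ccnd3* the GC box GGGCGG or its reverse complement and the CCAAT box, and the bases run 5′ to 3′ on the plus strand, which is that of both genes. The *Cdk4* window also held 1 GC box, left in lower case.
Cdk4, chr10:127063285-127063533: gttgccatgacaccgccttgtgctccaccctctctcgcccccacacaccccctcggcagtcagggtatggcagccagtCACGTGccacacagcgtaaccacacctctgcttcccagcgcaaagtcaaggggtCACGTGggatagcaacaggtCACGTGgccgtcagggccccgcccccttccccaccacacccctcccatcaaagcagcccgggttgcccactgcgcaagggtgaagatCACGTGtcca
Ccnd3, upstream start, chr17:47504801-47505050: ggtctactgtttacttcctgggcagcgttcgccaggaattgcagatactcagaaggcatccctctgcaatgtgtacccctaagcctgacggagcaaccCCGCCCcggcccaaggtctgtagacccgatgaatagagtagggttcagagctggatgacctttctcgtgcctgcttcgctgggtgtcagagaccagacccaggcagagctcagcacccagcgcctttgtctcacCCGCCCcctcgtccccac
Ccnd3, downstream start, chr17:47593217-47593435: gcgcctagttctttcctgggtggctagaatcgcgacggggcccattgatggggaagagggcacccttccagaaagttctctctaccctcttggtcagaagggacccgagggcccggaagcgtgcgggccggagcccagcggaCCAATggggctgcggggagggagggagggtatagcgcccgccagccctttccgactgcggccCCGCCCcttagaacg
Over both strands, an E-box was present in 6.02% of all 32851 RefSeq windows and 3 or more of them in 0.0609%, and the *Cdk4* window held 4, beginning 172, 118, 98 and 11 bases before its start. The GC box occurred in 32.7% and the CCAAT box in 33.8% of windows. Neither *Ccnd3* window held an E-box. These are matches of letters and not measured binding sites.

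Levels were compared between genes only per kilobase of exon (RPKM), and the order in untreated WT cells was *Cdk4*, *Ccnd2*, *Ccnd1*, *Ccnd3*, *Myc*, *Cdk6*, *Ccne1*, *Cdk2* and *Ccne2*. *Cdk4* averaged 102 ± 8.30 RPKM (SD, n = 5), *Ccnd2* 67.4 ± 6.10 and *Ccnd1* 28.5 ± 4.81, and the ranges of these 3 genes did not touch. The ranges of all further neighbours in the order overlapped except the last pair, since *Cdk2* lay between 3.68 and 4.61 RPKM and *Ccne2* between 0.964 and 1.11. Over all 20 libraries the order of the means was the same except that *Cdk2* stood above *Ccne1*. The middle of the order depended on the length used: with the longest transcript in place of all exon bases, *Ccnd3* (44.5 RPKM) stood above *Ccnd1* (35.9 RPKM) in untreated WT cells, and *Cdk2* above *Cdk6* and *Ccne1*. In WWP2-/- cells *Myc* averaged 22.1 ± 16.4 and *Ccnd3* 13.5 ± 2.69 RPKM untreated, and 22.2 ± 13.8 and 12 ± 1.23 RPKM treated, with overlapping ranges, and with the longest transcript their order turned, at 25.6 and 30.6 RPKM untreated and 25.8 and 27.3 RPKM treated. *Cdk4* and *Ccnd2* held the top places and *Ccne2* the last in all 4 groups.

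**Figure D1:**
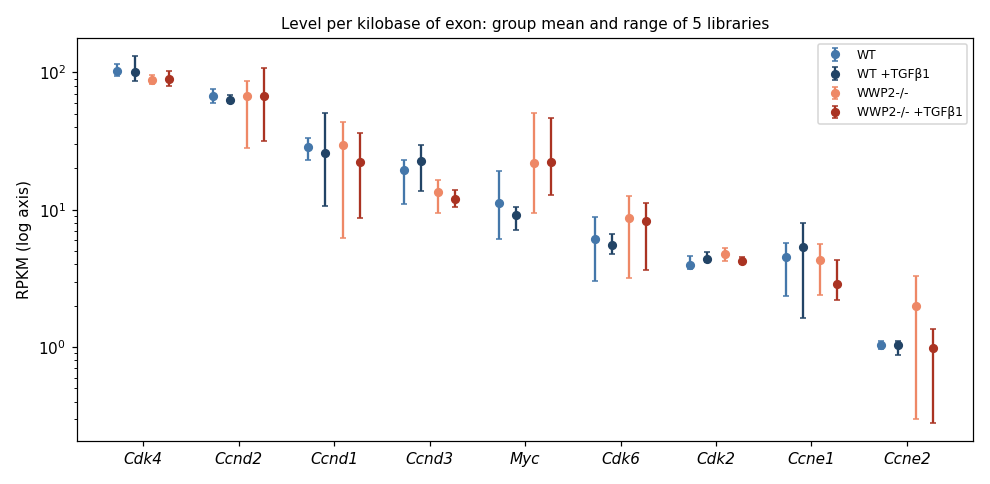
Mean RPKM of each gene (log axis) in the 4 groups, with bars from the lowest to the highest of 5 libraries. *Cdk4* is highest in every group, and the WWP2-/- bars of *Ccnd1*, *Ccnd2*, *Ccne2* and *Myc* are wide.

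*Ccnd2* made up most of the D cyclin transcripts in all groups. Of the summed RPKM of the D cyclins, *Ccnd2* made up 58.6% ± 3.85 in untreated WT, 57.1% ± 5.39 in treated WT, 61.4% ± 3.84 in untreated WWP2-/- and 64.8% ± 4.01 in treated WWP2-/- libraries (SD, n = 5 each). *Ccnd3* held 16.8% ± 3.36, 20.9% ± 7.0, 13.5% ± 4.67 and 13.6% ± 5.03 in the same order. *Cdk4* held between 87.5% and 97.4% of the summed RPKM of *Cdk4* and *Cdk6* in every library, so *Cdk4* transcripts outnumbered those of *Cdk6* throughout. *Ccne1* held from 60.5% to 93.9% of the E cyclin sum, and its highest shares of 93.7% and 93.9% were in the WWP2-/- libraries low in *Acta2*.

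*Ccnd3* (ENSMUSG00000034165, chromosome 17, 47505051 to 47599691, GRCm38, plus strand) encodes cyclin D3, which in many tissues rises as cells differentiate. The 5 untreated WT libraries, replicates 1 to 5, measured 179, 181, 204, 96.1 and 199 CPM and the treated ones 178, 229, 120.3, 259 and 209 CPM. The untreated WWP2-/- values were 118, 110.2, 83.4, 145 and 133 CPM and the treated ones 92.2, 122, 107, 104 and 102 CPM. In each treatment 4 of 5 WT libraries were above every WWP2-/- library, and the remaining one lay inside the WWP2-/- range. Those were untreated WT replicate 4 and treated WT replicate 3, which are also the 2 WT libraries with *Xist* under 1 CPM and the WT libraries with the lowest fibroblast marker sum and the highest macrophage marker sum of their groups.

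With TGFβ1, *Ccnd3* averaged 105 ± 10.8 CPM in WWP2-/- and 199 ± 53.0 CPM in WT cells (SD, n = 5), a log2 fold change of −0.92 ± 0.21 (SE, edgeR quasi-likelihood test, adjusted *P* = 0.0168). It was 1 of 9 members called in this comparison, in which 6.07% of the 20407 genes tested were called. Without TGFβ1, *Ccnd3* averaged 118 ± 23.6 against 172 ± 43.7 CPM, a log2 fold change of −0.54 ± 0.21 that did not pass (edgeR, adjusted *P* = 0.242, interval −0.95 to −0.14). The genotype difference did not itself differ detectably between treated and untreated cells, with an interaction of −0.38 on the log2 scale (edgeR, adjusted *P* = 0.893, interval −0.95 to 0.19).

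The *Ccnd3* call depended on the libraries and the covariate used. With log2 CPM of *Xist* as a covariate the treated difference was −0.77 and was no longer called (edgeR, adjusted *P* = 0.0788). Without treated WT replicate 2 or replicate 4 the adjusted *P* was 0.0514 or 0.0521 (edgeR). Among treated libraries with *Xist* above 1 CPM the mean difference was −1.22 on the log2 scale, from 1 WWP2-/- and 4 WT libraries, and among those with *Xist* under 1 CPM it was −0.15, from 4 WWP2-/- and 1 WT library. Untreated, the same differences were −0.92, from 2 WWP2-/- and 4 WT libraries, and 0.41, from 3 WWP2-/- and 1 WT library. With *Xist* above 1 CPM, the treated WWP2-/- library and 1 of the 2 untreated ones were those low in *Acta2*. These differences therefore cannot tell *Xist* and low *Acta2* apart. With both WT libraries lacking *Xist* left out, *Ccnd3* was called in treated cells at −1.05 (edgeR, adjusted *P* = 0.000134) and in untreated cells at −0.69 (edgeR, adjusted *P* = 0.00756). Those libraries had the lowest *Ccnd3* of their WT groups, and WWP2-/- libraries lacking *Xist* were kept, so the difference could only widen. The part of cell makeup or sex in this difference was not tested.

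**Figure D2:**
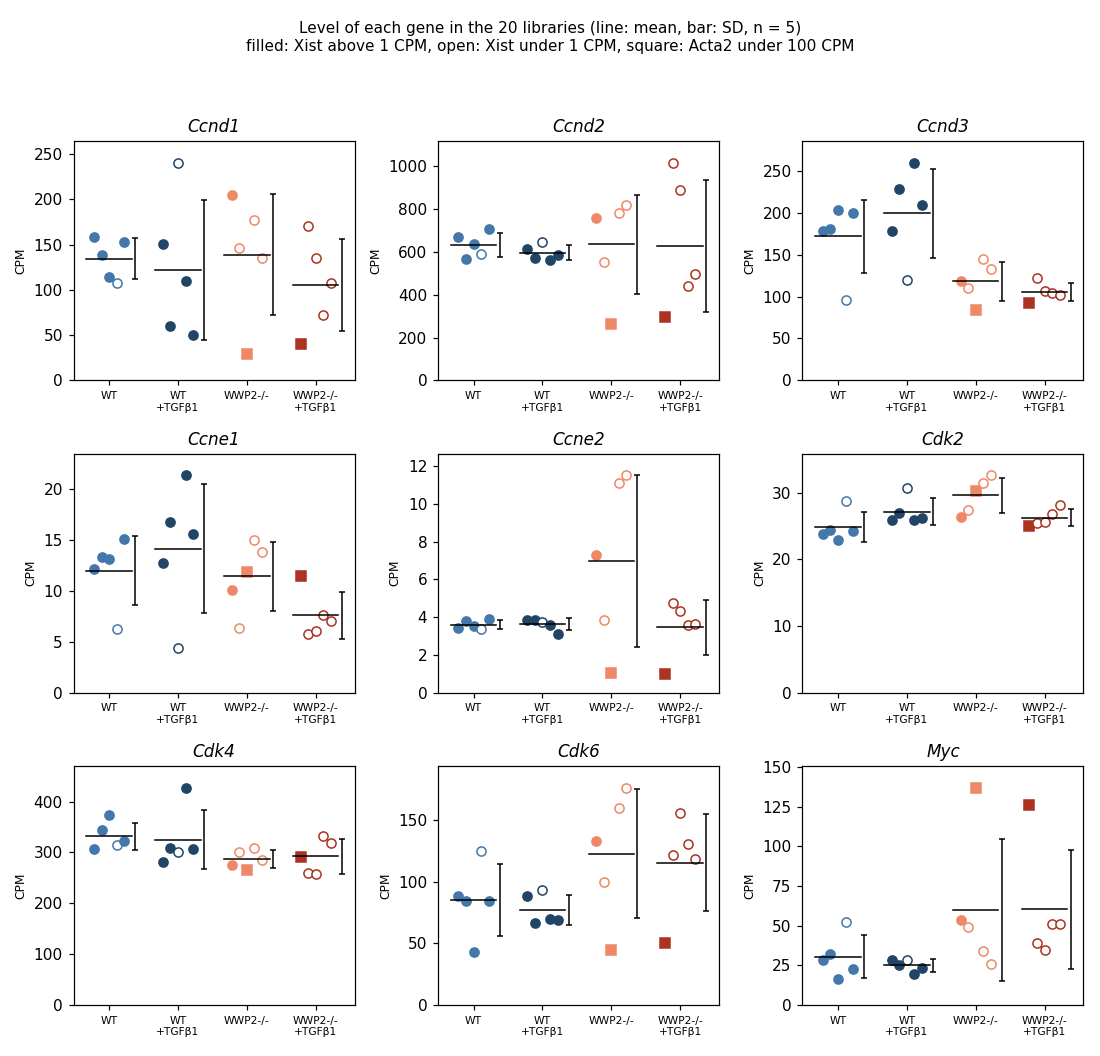
CPM of each gene in the 20 libraries, with the group mean as a line and the SD as a bar (n = 5). Open symbols have *Xist* under 1 CPM and squares are the libraries low in *Acta2*: the open WT points of *Ccnd3* lie at 96.1 and 120.3 CPM among the WWP2-/- points, and the squares are lowest for *Ccnd1*, *Ccnd2* and *Ccne2* and highest for *Myc* within the WWP2-/- groups.

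The genes whose levels followed *Ccnd3* most closely over the 20 libraries, among 10950 genes with a mean of at least 5 CPM, were *Mfap2* (Spearman's rho 0.968), *Calm3* (0.967) and *Papss1* (0.962). The points share the libraries and their cell makeup. *Mfap2*, which encodes a protein of elastic microfibrils, averaged 43.3 CPM in treated WT and 12.5 CPM in treated WWP2-/- cells. *Calm3*, a calmodulin gene, averaged 434 and 272 CPM, and *Papss1*, which makes the sulfate donor for proteoglycans, 73.0 and 53.5 CPM in the same groups.

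*Ccnd1* (ENSMUSG00000070348, chromosome 7, 144929931 to 144939925, minus strand) encodes cyclin D1, the classical target of growth factor and adhesion signals. In WT libraries the untreated values were 158, 139, 114, 108 and 153 CPM and the treated ones 150.0, 59.7, 239.9, 109 and 50.4 CPM. In WWP2-/- libraries the untreated values were 204, 147, 29.4, 177 and 135 CPM and the treated ones 40.7, 171, 135, 72.0 and 108 CPM. All 4 groups overlapped, untreated WT was the tightest, and the low points of the WWP2-/- groups were the libraries low in *Acta2*. The genotype differences were 0.05 untreated (interval −0.86 to 0.95) and −0.21 treated (interval −1.12 to 0.70) on the log2 scale, with wide intervals in both. With *Xist* as a covariate they were −0.59 and −0.82 (edgeR, adjusted *P* = 0.454 and 0.281), and with 1 library left out they changed sign, from −0.15 without untreated WWP2-/- replicate 1 to 0.28 without replicate 3, and from −0.47 without treated WWP2-/- replicate 2 to 0.17 without treated WT replicate 3. Exons of *LTO1* on the opposite strand overlap 23.4% of the *Ccnd1* exon bases. Reads there could be added to or missing from its counts, since the strand setting and the handling of such reads are not given. For *Ccnd2*, *Ccnd3*, *Cdk2* and *Cdk6* each such overlap covered between 0.55% and 4.11% of exon bases.

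*Ccnd2* (ENSMUSG00000000184, chromosome 6, 127125162 to 127152193, minus strand) encodes cyclin D2 and was the most abundant D cyclin here. Across untreated WT libraries the values were 669, 568, 636, 589 and 708 CPM and the treated ones 615, 573, 648, 563 and 585 CPM. Untreated WWP2-/- libraries measured 757, 552, 265, 782 and 821 CPM and the treated ones 296, 1016, 892, 442 and 499 CPM. The means of the groups were nearly equal, at 634, 597, 636 and 629 CPM, while the coefficient of variation was 9.06% and 5.81% in the WT groups and 36.5% and 49.1% in the WWP2-/- groups. The fitted genotype difference was 0.00 untreated (interval −0.57 to 0.58) and 0.08 treated (interval −0.50 to 0.65) on the log2 scale. With 1 library left out its sign changed, from −0.14 to 0.18 untreated and from −0.18 to 0.24 treated. With *Xist* as a covariate the treated difference was −0.32 (edgeR, adjusted *P* = 0.586).

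*Ccne1* (ENSMUSG00000002068, chromosome 7, 38097984 to 38107534, minus strand) encodes cyclin E1, which activates CDK2 at the entry to S phase. Untreated WT libraries measured 12.2, 13.3, 13.2, 6.24 and 15.1 CPM and the treated ones 12.7, 16.7, 4.35, 21.4 and 15.7 CPM. The untreated WWP2-/- values were 10.1, 6.37, 11.9, 15.0 and 13.8 CPM and the treated ones 11.5, 5.82, 6.07, 7.60 and 7.07 CPM. Of the treated WT libraries, 4 were above all treated WWP2-/- libraries, and the low WT libraries were again the ones lacking *Xist*. The treated difference was −0.90 ± 0.34 on the log2 scale and did not pass (SE, edgeR, adjusted *P* = 0.115). It passed without treated WT replicate 3 at −1.14 and without both WT libraries lacking *Xist* at −1.13 (edgeR, adjusted *P* = 0.0046 in the latter), and it was −0.34 with *Xist* as a covariate (edgeR, adjusted *P* = 0.566). The libraries left out were the lowest in *Ccne1* of their WT groups, so leaving them out could only widen the treated difference. Untreated, it was −0.07 (edgeR, adjusted *P* = 0.936, interval −0.73 to 0.59), and 0.40 with *Xist* as a covariate (edgeR, adjusted *P* = 0.456).

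*Ccne2* (ENSMUSG00000028212, chromosome 4, 11191351 to 11204779, plus strand) encodes cyclin E2, an E2F target made as cells enter S phase, and was the least abundant member, with 52 to 776 counts per library. In WT libraries the untreated values were 3.40, 3.81, 3.54, 3.37 and 3.88 CPM and the treated ones 3.85, 3.87, 3.73, 3.60 and 3.08 CPM. In WWP2-/- libraries the untreated values were 7.29, 3.85, 1.05, 11.1 and 11.5 CPM and the treated ones 0.977, 4.74, 4.32, 3.58 and 3.66 CPM. WT libraries were nearly level, and untreated WWP2-/- libraries spanned from the second lowest value of all to the highest. The untreated genotype difference was 0.95 ± 0.45 on the log2 scale (SE, edgeR, adjusted *P* = 0.334), and with both WWP2-/- libraries low in *Acta2* left out it was 1.21 and passed (edgeR, adjusted *P* = 0.0345). It was 0.28 with *Xist* as a covariate (edgeR, adjusted *P* = 0.751), and between 0.67 and 1.21 with 1 library left out. With TGFβ1 it was −0.07 (interval −0.95 to 0.81), or −0.87 with *Xist* as a covariate (edgeR, adjusted *P* = 0.316), and within WWP2-/- cells the treated mean was 2.02-fold lower than the untreated, which did not pass (edgeR, adjusted *P* = 1.0). Exons of *Ints8* overlap 17.4% of the *Ccne2* exon bases, and reads there could be added to or missing from its counts.

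**Figure D3:**
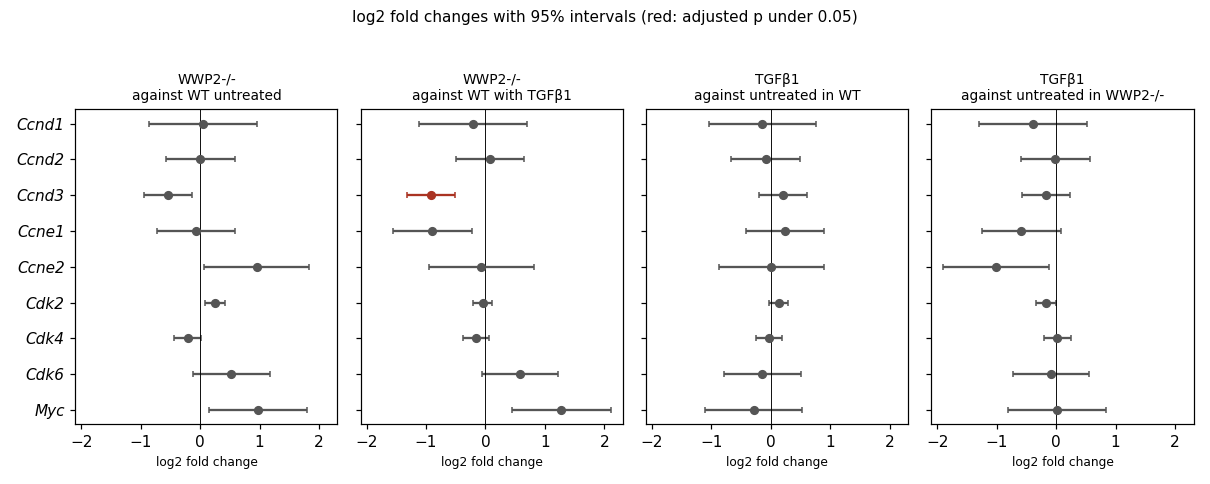
log2 fold changes of the 9 genes with 95% intervals in the 4 comparisons of groups. The interval of *Ccnd3* with TGFβ1, from −1.32 to −0.51, is the only one in red, which marks an adjusted *P* under 0.05.

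*Cdk4* (ENSMUSG00000006728, chromosome 10, 127063534 to 127067920, plus strand) encodes the main partner of D cyclins and was one of the steadiest members. Across untreated WT libraries the values were 306, 344, 373, 315 and 322 CPM and the treated ones 282, 309, 300, 427 and 308 CPM. Untreated WWP2-/- libraries measured 275, 301, 266, 309 and 286 CPM and the treated ones 292, 260.4, 257, 333 and 318 CPM. Groups overlapped in every comparison, and the highest library, treated WT replicate 4, stood apart from its group. The genotype difference was −0.21 untreated (interval −0.43 to 0.02) and −0.15 treated (interval −0.38 to 0.07) on the log2 scale. Exons of *Tspan31* overlap 19.7% of the *Cdk4* exon bases, and reads there could be added to or missing from its counts.

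*Cdk6* (ENSMUSG00000040274, chromosome 5, 3341485 to 3531008, plus strand) encodes the other partner of D cyclins. Untreated WT libraries measured 88.6, 84.5, 42.6, 124 and 84.4 CPM and the treated ones 87.9, 66.4, 92.8, 69.6 and 68.6 CPM. The untreated WWP2-/- values were 133, 100, 44.5, 159 and 176 CPM and the treated ones 50.5, 121, 156, 130.4 and 118 CPM. Of the treated WWP2-/- libraries, 4 were above all treated WT libraries, and the fifth, low in *Acta2*, was below them. The treated difference was 0.58 ± 0.33 on the log2 scale and did not pass (SE, edgeR, adjusted *P* = 0.285). It passed at 0.76 with both WWP2-/- libraries low in *Acta2* left out (edgeR, adjusted *P* = 0.0334), and was −0.08 with *Xist* as a covariate (edgeR, adjusted *P* = 0.899). Untreated, it was 0.53 (edgeR, adjusted *P* = 0.457, interval −0.12 to 1.17), and 0.07 with *Xist* as a covariate (edgeR, adjusted *P* = 0.899).

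*Cdk2* (ENSMUSG00000025358, chromosome 10, 128697939 to 128705031, minus strand) encodes the kinase of the E cyclins. In WT libraries the untreated values were 23.8, 24.4, 22.9, 28.7 and 24.3 CPM and the treated ones 26.0, 27.0, 30.7, 25.9 and 26.2 CPM. In WWP2-/- libraries the untreated values were 26.4, 27.4, 30.3, 31.4 and 32.6 CPM and the treated ones 25.1, 25.5, 25.7, 26.8 and 28.2 CPM. All untreated WWP2-/- libraries were above 4 of the 5 untreated WT libraries, and the exception was the WT library lacking *Xist*. The untreated difference was small, 0.26 ± 0.08 on the log2 scale, and did not pass (SE, edgeR, adjusted *P* = 0.177). It passed at 0.32 with both WT libraries lacking *Xist* left out (edgeR, adjusted *P* = 0.0242). Those libraries had the highest *Cdk2* of their WT groups, so leaving them out could only widen the untreated difference. With TGFβ1 the difference was −0.05 (interval −0.21 to 0.12), and the interaction of −0.31 did not pass (edgeR, adjusted *P* = 0.594).

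*Myc* (ENSMUSG00000022346, chromosome 15, 61985391 to 61990374, plus strand) encodes a short-lived transcription factor whose transcript answers quickly to growth signals and stress. Across untreated WT libraries the values were 28.2, 32.2, 16.5, 52.4 and 22.8 CPM and the treated ones 28.2, 25.3, 28.6, 19.2 and 23.3 CPM. Untreated WWP2-/- libraries measured 53.9, 49.2, 137, 34.1 and 25.7 CPM and the treated ones 126, 39.3, 34.5, 50.9 and 51.2 CPM. All treated WWP2-/- libraries were above all treated WT libraries, while the untreated groups overlapped. The highest library of each WWP2-/- group was the one low in *Acta2*.

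With TGFβ1, *Myc* averaged 60.4 ± 37.5 CPM in WWP2-/- and 24.9 ± 3.85 CPM in WT cells (SD, n = 5), a log2 fold change of 1.28 ± 0.43 that did not pass (SE, edgeR, adjusted *P* = 0.0762). *Myc* was the only member whose treated libraries did not overlap between genotypes, which 5.67% of all genes tested showed. Without treated WWP2-/- replicate 1 the fold change was 0.80 (edgeR, adjusted *P* = 0.168). With *Xist* as a covariate the fold change was 1.46 and did not pass (edgeR, adjusted *P* = 0.0550). *Myc*, as a gene, responded to other fits as follows. It passed in DESeq2's Wald test at 1.28 (adjusted *P* = 0.0269), and at 0.81 with both WWP2-/- libraries low in *Acta2* left out (edgeR, adjusted *P* = 0.0453). Untreated, the fold change was 0.98 ± 0.42 (SE, edgeR, adjusted *P* = 0.293), and it was 0.40 without untreated WWP2-/- replicate 3 (edgeR, adjusted *P* = 0.661).

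The libraries highest in *Myc* were not the highest in *Cdk4*. Untreated WWP2-/- replicate 3, with 137 CPM of *Myc*, had 266 CPM of *Cdk4*, the lowest of its group, and treated WWP2-/- replicate 1, with 126 CPM of *Myc*, had 292 CPM of *Cdk4*, the middle of its group. These same libraries had the lowest *Ccnd1*, *Ccnd2*, *Ccne2* and *Cdk6* of their groups.

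**Figure D4:**
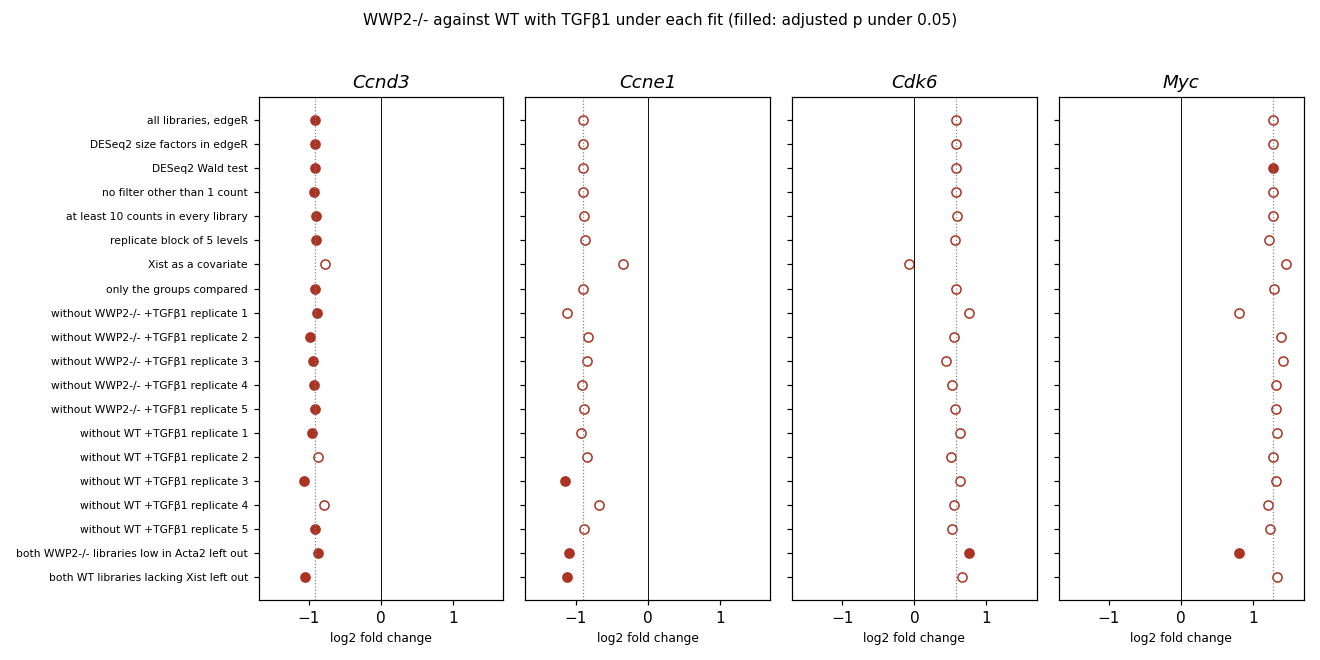
log2 fold change of 4 genes between treated WWP2-/- and treated WT cells under each way of fitting, where filled points have an adjusted *P* under 0.05 and the dotted line is the value with all libraries in edgeR. *Ccnd3* stays between −1.07 and −0.77, *Cdk6* falls to −0.08 with *Xist* as a covariate, and *Myc* falls to 0.80 without WWP2-/- +TGFβ1 replicate 1.

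In untreated cells none of the 9 members was called between genotypes by edgeR, against 0.725% of all genes tested, and 4 had an unadjusted *P* under 0.05 (*Ccnd3*, *Ccne2*, *Cdk2* and *Myc*), against 14.9% of all genes. DESeq2's Wald test also called none of the 9. With TGFβ1, 3 members had an unadjusted *P* under 0.05 (*Ccnd3*, *Ccne1* and *Myc*), against 24.7% of all genes. The median log2 fold change of the 9 members was −0.07 treated and 0.05 untreated, beside 0.05 and 0.08 over all genes tested.

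TGFβ1 itself moved none of the members past the threshold. Which treated and untreated libraries share a mouse is not known, so these comparisons were unpaired. Any differences between mice stayed in their spread, which lowers the power to call genes. In WT cells edgeR called 0 of 9 members and 0.0% of genes, none of the 9 had an unadjusted *P* under 0.05 against 6.85% of all genes, and DESeq2's Wald test called 27 genes and none of the members. The largest difference was that of *Myc*, at −0.29 on the log2 scale (interval −1.11 to 0.53), and the narrowest interval was that of *Cdk2*, at 0.13 (interval −0.04 to 0.30). In WWP2-/- cells edgeR again called 0 of 9 members and 0.0% of genes, *Ccne2* alone had an unadjusted *P* under 0.05 (edgeR, unadjusted *P* = 0.0378) against 3.49% of all genes, and DESeq2's Wald test called 49 genes and none of the members. The interaction of genotype and treatment was called for 0 of 9 members and 0.0% of genes in edgeR, for *Cdk2* alone at an unadjusted *P* under 0.05 (edgeR, unadjusted *P* = 0.0200) against 6.98% of genes, and for 10 genes and none of the members in DESeq2. As a check of the treatment, *Acta2* averaged 1680 ± 226 CPM in treated and 1159 ± 125 CPM in untreated WT libraries (SD, n = 5) without overlap, a log2 fold change of 0.54 that did not pass in the shared fit (edgeR, adjusted *P* = 0.954).

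Inhibitors of the G1 kinases oppose the cyclins. Of 7 inhibitor genes, 2 fell and none rose in treated WWP2-/- against treated WT cells, where 6.07% of all genes were called, and the median was −0.41 on the log2 scale beside 0.05 over all genes. *Cdkn2c*, which encodes p18, an inhibitor of CDK4 and CDK6, averaged 11.7 ± 1.24 CPM in treated WWP2-/- and 23.5 ± 4.99 CPM in treated WT cells (SD, n = 5), a log2 fold change of −1.0 (edgeR, adjusted *P* = 0.0323). *Cdkn1b*, which encodes p27, an inhibitor of cyclin E with CDK2, averaged 58.6 ± 5.66 and 80.5 ± 10.3 CPM, a log2 fold change of −0.46 (edgeR, adjusted *P* = 0.0264). In untreated cells none of the 7 passed. *Cdkn2a* had the lowest p there, at −0.82 (edgeR, adjusted *P* = 0.0814). Calls of genes in this and the following lists come from the fit of all libraries in edgeR alone. They were not checked with *Xist* as a covariate or with libraries left out. With *Xist* as a covariate the calls over all genes with TGFβ1 fell from 1238 to 713.

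The retinoblastoma and E2F genes, 13 in number, gave no calls in either genotype comparison, with medians of −0.06 treated and 0.21 untreated. Of these *E2f7* came closest with TGFβ1 (−1.94, edgeR, adjusted *P* = 0.0745) and *Rbl1* without (0.55, edgeR, adjusted *P* = 0.191). Of 16 E2F target genes of DNA synthesis, 1 was lower in treated WWP2-/- than in treated WT cells, a share near the 6.07% of all genes called. The median was −0.47 in this comparison, whereas between untreated cells none passed and the median was 0.52. The gene called was *Rrm1*, a subunit of the reductase that makes deoxynucleotides. It averaged 67.5 ± 17.4 CPM in treated WWP2-/- and 275 ± 30.2 CPM in treated WT cells (SD, n = 5), a log2 fold change of −2.02 (edgeR, adjusted *P* = 0.00991).

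None of 10 mitosis genes passed in either genotype comparison, although all 10 had negative values with TGFβ1 (median −1.45) and all 10 positive values without (median 1.29). Closest were *Plk1* with TGFβ1 (−2.0, edgeR, adjusted *P* = 0.0568) and *Aurka* without (1.08, edgeR, adjusted *P* = 0.215). Genes that activate or degrade G1 regulators, 13 in number, also gave no calls, with medians of 0.02 treated and −0.00 untreated. Of them *Fbxo4*, part of a ubiquitin ligase, had the lowest p with TGFβ1 (−0.30, edgeR, adjusted *P* = 0.123) and *Cdc25a*, a phosphatase that activates CDK2, without (0.56, edgeR, adjusted *P* = 0.0640).

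Partners and rivals of MYC, 12 genes, gave no calls, with *Mxd3* (−1.74, edgeR, adjusted *P* = 0.0578) closest with TGFβ1 and *Mycl* (1.65, edgeR, adjusted *P* = 0.0520) without. Of 18 MYC target genes of ribosome making and growth, none passed, and 15 had positive values in both comparisons, with medians of 0.20 treated and 0.20 untreated. *Tfrc* came closest with TGFβ1 (0.81, edgeR, adjusted *P* = 0.0724) and *Nop58* without (0.38, edgeR, adjusted *P* = 0.196). Of 12 immediate early genes, 1 was higher in treated WWP2-/- than in treated WT cells, a share near the 6.07% of all genes called. This was *Jun*, a subunit of AP-1, at 135 ± 15.2 CPM in treated WWP2-/- and 65.1 ± 13.3 CPM in treated WT cells (SD, n = 5), a log2 fold change of 1.05 (edgeR, adjusted *P* = 0.0129). Untreated none passed, and *Egr1* was closest (1.05, edgeR, adjusted *P* = 0.102).

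**Figure D5:**
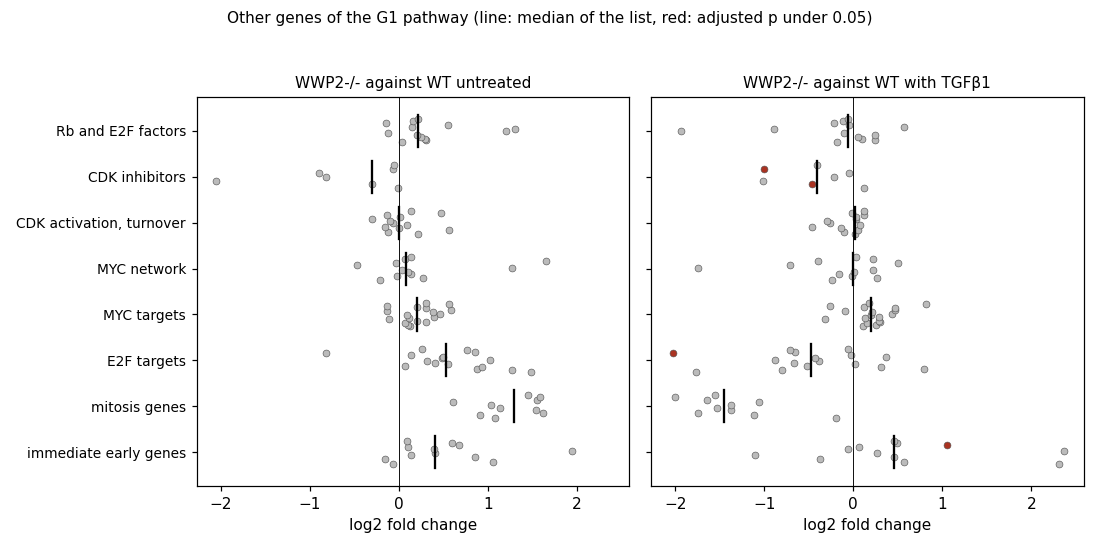
log2 fold changes between genotypes for the other genes of the pathway, 1 point per gene, with the median of each list as a line and red for an adjusted *P* under 0.05. Mitosis genes all lie right of 0 untreated and left of 0 with TGFβ1, and the red points are *Cdkn2c*, *Cdkn1b*, *Rrm1* and *Jun*.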

How the data were processed

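Primary renal myofibroblasts were profiled by poly-A RNA sequencing. Per the paper's methods, the authors mapped reads to GRCm38 with STAR and counted exon reads with featureCounts. The deposited values are whole numbers with totals that differ between libraries, and were taken as raw counts. The strand setting is not given in the sources used here. The filter left 20407 genes, those reaching 5 counts in 5 or more libraries. Counts were scaled by TMM and all 20 libraries fitted as 4 groups in edgeR 4.0.16 (R 4.3.3), without a block, with glmQLFTest and Benjamini–Hochberg adjustment over all genes tested at 0.05. Overlap means that the ranges of CPM of 2 groups of 5 libraries intersect. Intervals are approximate 95% ones, as ± 1.96 SE, with the SE derived from the fold change and the statistic of the edgeR test. They can be narrower than that test implies. For *Cdk2*, treated against untreated WWP2-/- cells, the interval was −0.341 to −0.009 at an unadjusted *P* of 0.0533 (edgeR). RPKM used union exon length from GENCODE M21, which named 51633 of 51826 genes. No pair of libraries was identical.

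Named genes were the 9 members, the 3 genes most like a called member, and from each list the called genes or the one with the lowest p; some items that this rule names are not reported here. Members and lists were chosen with earlier results of these data known. Alternatives were DESeq2 1.42.0, its size factors, other filters, a replicate block, *Xist* as a covariate, the compared groups alone, and leaving out libraries. In counts simulated for treated WWP2-/- against treated WT cells, 50 of 194 genes changed 1 log2 unit were recovered with 3 false calls, and 139 of 197 changed 2 log2 units with 6.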

Additional observations from a re-analysis of the deposited data

Results flagged for a closer look

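Of 36 groups of 5 libraries (9 genes in 4 groups), 6 held a library whose gap to its nearest neighbour, over the range of the group, exceeded Dixon's critical value of 0.71, which chance alone exceeds in about 1 in 20 groups. In untreated WT replicate 4, *Ccnd3* was lowest at 96.1 CPM with the next library at 179 CPM, and *Cdk2* was highest at 28.7 CPM with the next at 24.4 CPM. That library lacked *Xist* and had the highest macrophage marker sum. Treated WT replicate 3, which also lacked *Xist*, had the highest *Cdk2*, 30.7 CPM with the next at 27.0 CPM. Treated WT replicate 4 had the highest *Cdk4*, 427 CPM with the next at 309 CPM. *Myc* was highest in both libraries low in *Acta2*, at 137 CPM in untreated WWP2-/- replicate 3 with the next at 53.9 CPM, and at 126 CPM in treated WWP2-/- replicate 1 with the next at 51.2 CPM.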

How the results depend on the processing

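Of 954 recomputed log2 fold changes of the members, 941 stayed on their side of the threshold, 10 passed newly, 3 no longer passed, and none that passed in either fit changed sign, while 75 that passed in neither had the opposite sign. With TGFβ1, 1 member was called between genotypes. DESeq2's Wald test called 2 (*Ccnd3* and *Myc*), *Xist* as a covariate 0, both *Acta2*-low libraries left out 4 (*Ccnd3*, *Ccne1*, *Cdk6* and *Myc*) and both WT libraries lacking *Xist* left out 2 (*Ccnd3* and *Ccne1*), these last choices being made after seeing the data. Leaving out 1 library gave 0 to 2: 0 without treated WT replicate 2 or 4, and 2 without treated WT replicate 3. Untreated, where none was called, both *Acta2*-low libraries left out gave 1 (*Ccne2*), both WT libraries lacking *Xist* left out gave 2 (*Ccnd3* and *Cdk2*), and leaving out 1 library gave 0 to 1, the latter *Ccnd3* without WT replicate 4. For the newly called *Ccne1*, *Ccne2*, *Cdk2*, *Cdk6* and untreated *Ccnd3*, the libraries left out were those that narrowed the difference, so it could only widen. The cause of these shifts was not tested. Over all genes the calls with TGFβ1 were 1238, between 453 and 2730 with 1 library left out (without treated WT replicates 2 and 3), 534 with only the groups compared and 3480 without both *Acta2*-low libraries. Untreated they were 148, between 1 and 743 with 1 library left out (743 without WT replicate 4), 743 in DESeq2 and 1136 without both WT libraries lacking *Xist*. In the level order over all 20 libraries 7 of 9 members kept their place with the longest transcript as length, and 7 to 9 with 1 library left out.

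The deviations of same-numbered libraries from their group means correlated between −0.59 and 0.53. In no pair of groups were all 5 correlations over 0.1, so the numbers were not taken as pairs, although 4 of 5 were for untreated WT and WWP2-/- (median 0.27). Different numbers gave the highest values, such as 0.95 for the 2 *Acta2*-low libraries and 0.76 as the highest within WT. The replicate block kept *Ccnd3* as the 1 member called with TGFβ1 (−0.90, edgeR, adjusted *P* = 0.0428) and 0 in the other comparisons, and moved the calls over all genes from 1238 to 670 with TGFβ1 and from 148 to 1 untreated.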

Other observations

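The same lists were also compared between treated and untreated cells of 1 genotype, where edgeR called none of their genes. In WWP2-/- cells all 16 E2F targets had negative values with TGFβ1 (median −0.62 on the log2 scale, 0.00 over all genes), as did all 10 mitosis genes (median −2.21), while in WT cells the 10 mitosis genes had positive values (median 0.46). The summed level of the 10 mitosis genes ranged from 38.3 to 80.4 CPM in untreated WT, 22.6 to 128 in treated WT, 24.2 to 281 in untreated WWP2-/- and 27.0 to 45.1 in treated WWP2-/- libraries. Untreated WWP2-/- libraries thus held both the highest mitosis sums and the highest *Ccne2* of the series, in replicates 4 and 5, and one of the lowest of each, in replicate 3.

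Among TGFβ1 response genes, *Postn*, encoding periostin, and *Col1a1*, encoding a collagen I chain, differed between genotypes in treated cells. They were lower by 2.44 and 1.98 on the log2 scale in treated WWP2-/- than in treated WT cells (edgeR, adjusted *P* = 0.0407 and 0.0492). *Cdkn1a*, the p53 target that encodes p21, was the most abundant CDK inhibitor gene at 739 ± 268 CPM in treated WWP2-/- and 679 ± 73.4 CPM in treated WT cells (SD, n = 5), a difference of 0.12 on the log2 scale that did not pass (edgeR, adjusted *P* = 0.789).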
